A study of Homo sapiens with 24 samples.

Results

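The 36 genes described here are pan-endothelial and endocardial genes, which mark the cells that line blood vessels and the inner wall of the heart. They are a list of names, matched to the count table by their Ensembl identifiers. Of the 36, 34 had an identifier among the 62757 genes of the count table, and 32 passed the filter on low counts and were tested among 17724 genes. NPR3-AS1 and TIE1-AS1 could not be matched to an identifier and are given no value. ECSCR, an endothelial surface protein, and ETV2, the ETS factor that starts the blood and endothelial programme, did not pass the filter. ECSCR had at most 15 counts and ETV2 at most 18 counts in any library.

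Endothelial cells carry receptors for vascular endothelial growth factor (VEGF), angiopoietins, apelin and adrenomedullin, and they hold to each other by VE-cadherin and claudin junctions. Transcription factors of the ETS, SOX and basic helix-loop-helix families switch these genes on. The endocardium is the endothelium of the heart wall, forms next to early cardiomyocytes, and is marked by NFATC1 as well as by the general endothelial genes.

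The 24 libraries came from the human embryonic stem cell line HES3, which carried a GFP reporter at NKX2-5 and an mCherry reporter at NR2F2 in every group. The cells were differentiated towards heart muscle as embryoid bodies (floating cell aggregates) with modulation of Wnt signalling for at most 14 days. One protocol, AM, received retinoic acid on day 4, and the other, VM, did not; AM is read here as atrial and VM as ventricular, which the labels do not spell out. Within each protocol, CRISPR-Cas9 was aimed at LHX2, ZNF503 or ZNF711 or, as the control, at TRAC, a T cell receptor gene. Each of the 8 groups of protocol and target held 3 libraries, numbered as replicates 1 to 3. Whether a targeted culture was 1 clone or a mixture, and whether replicates were separate differentiations, is not given in the sources used here, so the p-values measure the spread between these samples, which may be technical.

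Libraries held 2899786 to 7438010 counts, and 3 counts, taken as the detection floor, equalled 0.447 to 0.963 CPM, where CPM is a count scaled to a common library size. The targeted genes did not all check the labels. LHX2 was low, at 0.515 to 2.08 CPM in the AM libraries labelled LHX2 and 0 to 6.29 CPM in the other AM libraries. In VM it had a median of 1.5 CPM (0.424 to 2.79) in the libraries labelled LHX2 and 3.70 CPM (1.84 to 6.89) in the others, lower in the direction of the label with overlapping ranges. ZNF503 was higher in the libraries labelled ZNF503, at 254 to 365 CPM in AM against 70.3 to 122 CPM in the other 9 AM libraries. ZNF503 in VM was also higher there, at 19.1 to 45.1 CPM against 8.61 to 16.7 CPM. ZNF711 ranged over 31.1 to 55.6 CPM in the AM libraries labelled ZNF711 and 47.2 to 72.9 CPM in the others, and over 25.8 to 33.8 CPM and 28.5 to 47.7 CPM in VM; both pairs of ranges overlap. LHX2, ZNF503 and ZNF711 are therefore used below as names of labelled libraries. All libraries are labelled as cardiomyocytes, and 10 cardiomyocyte genes together reached 11809 to 42310 CPM.

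ERG, FLI1, ETS1 and ETV2 are ETS factors, which bind DNA at a short purine-rich core, and the promoters of the members were searched for such motifs. RefSeq promoters (GRCh38.p14) were held for 21 of the 36 members, with 30 transcription starts, and the 250 bases upstream of each start were read on both strands. The ETS motif CAGGAAG was found in 12 of the 30 windows (40%), against 10.5% of all 35116 promoters of the same length. Starts of the same gene were counted separately, and these 12 windows belonged to 10 members. A second ETS motif, CCGGAAG, was found in 0 of the 30 windows, against 8.52% of all promoters. At least 1 of the ETS motifs was found in 40% of the windows, against 18.2% of all promoters. The GATA motif AGATAA was found in 5 of the 30 windows (16.7%) against 9.17%. The forkhead motif TGTTTAC was found in 0 of the 30 against 2.98%. The ETS motifs differ from each other only in the second letter. By member, CAGGAAG was present in 5 of 11 genes higher in AM, 1 of 2 lower in AM and 4 of 8 without a call. The calls are those described below. The 8 without a call included members that were not tested, among them ECSCR and ETV2, which both carried the motif.

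The windows of 3 members with 1 start each show the motif in a gene that rose in AM (PLVAP), the motif in a gene without a call (APLN), and its absence in a gene that rose (TIE1). Windows that share over 30 bases with an exon annotated in GENCODE 29 are not printed. Each runs 5′ to 3′ on the strand of the gene, with positions in GRCh38.p14, and capitals mark the match to CAGGAAG on either strand. A match describes the letters only.
PLVAP, chr19:17377343-17377592, minus strand: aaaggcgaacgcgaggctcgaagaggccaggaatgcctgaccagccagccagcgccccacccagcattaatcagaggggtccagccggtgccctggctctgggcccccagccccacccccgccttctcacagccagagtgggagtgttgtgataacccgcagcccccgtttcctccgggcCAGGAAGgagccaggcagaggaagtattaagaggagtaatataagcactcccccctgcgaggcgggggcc
APLN, chrX:129654957-129655206, minus strand: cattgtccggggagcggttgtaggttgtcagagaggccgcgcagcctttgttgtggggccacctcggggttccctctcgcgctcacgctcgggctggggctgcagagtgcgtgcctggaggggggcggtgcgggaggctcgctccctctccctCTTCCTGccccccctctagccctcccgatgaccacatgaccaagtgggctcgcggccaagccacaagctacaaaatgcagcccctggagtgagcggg
TIE1, chr1:43300732-43300981, plus strand: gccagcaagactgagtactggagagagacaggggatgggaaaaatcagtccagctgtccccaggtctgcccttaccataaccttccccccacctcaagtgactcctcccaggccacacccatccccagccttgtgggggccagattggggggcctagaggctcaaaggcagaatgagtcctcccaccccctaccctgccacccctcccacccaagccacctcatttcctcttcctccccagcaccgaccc

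Across the 4 targets, 20 of the 32 tested members were higher in AM, 3 were lower and 9 were not called. The highest were ROBO4, a guidance receptor that steadies vessels, APLNR, the receptor for apelin, and CLDN5, the claudin of endothelial tight junctions. S1PR1, the receptor for sphingosine-1-phosphate, NFATC1, the endocardial transcription factor, and ANGPT2, the angiopoietin that opposes TEK signalling, were lower. The test was edgeR's quasi-likelihood test of the mean of the 4 differences between AM and VM, 12 libraries against 12. It used Benjamini-Hochberg adjustment and a call below 0.05, without a replicate block. The 12 libraries of a protocol were 3 replicate numbers in each of 4 targets. Deviations from group means correlated at 0.198 to 0.786 between targeted and TRAC libraries of the same number and protocol. The 12 libraries, and the 12 same-number pairs used below, may therefore hold fewer than 12 independent samples. Of all genes tested, 34.5% were called in either direction, 16.8% higher and 17.6% lower. With scaling to library size alone, all calls split into 3797 higher and 2496 lower, in place of 2979 and 3128. The median log2 fold change was 0.48 over the members and -0.01 over all genes. In these bulk libraries, a different number of endothelial cells, a different level per cell and RNA from other cell types cannot be told apart.

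**Figure D1:**
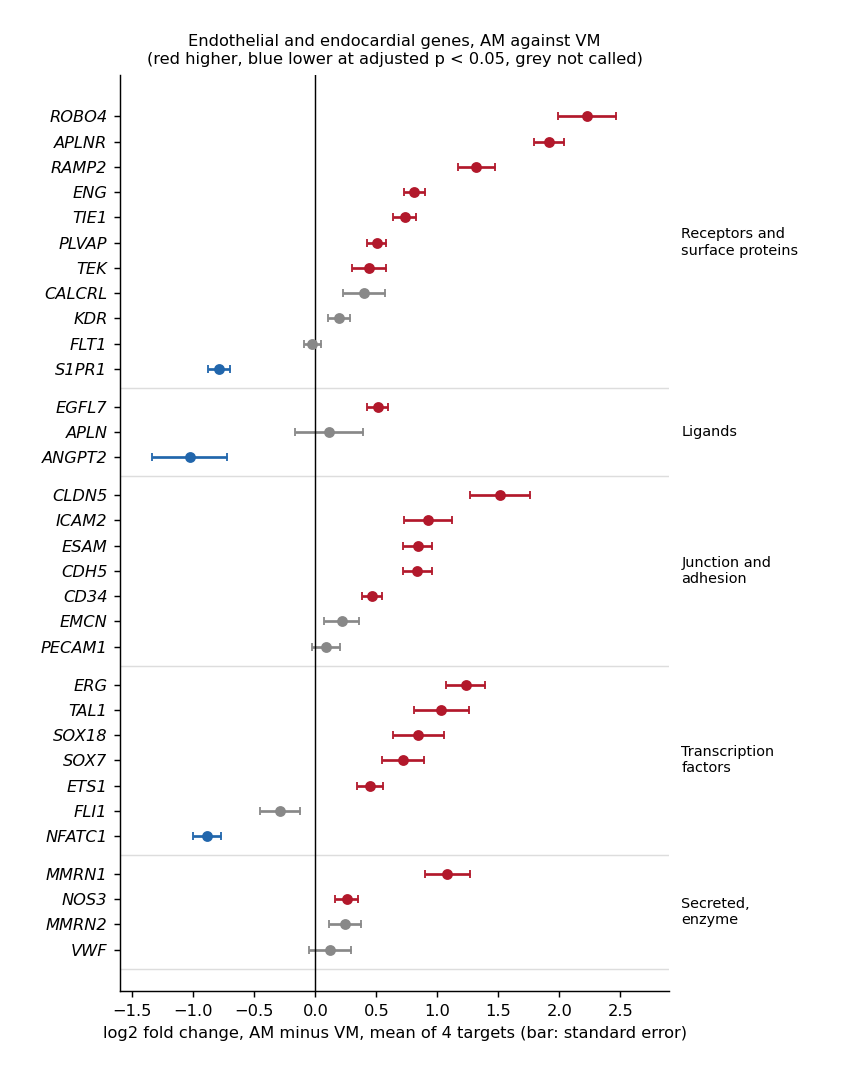
Log2 fold change of the 32 tested members, AM minus VM averaged over the 4 targets, grouped by role, with bars for the standard error. The 20 red members lie above 0, the 3 blue members (S1PR1, ANGPT2, NFATC1) below it, and the 9 grey members were not called at an adjusted p below 0.05.

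Among the receptors and surface proteins, 7 of 11 rose, 1 fell and 3 were not called. ROBO4 ranged over 6.08, 10.2 and 18.6 CPM (lowest, median and highest) in AM and 0.821, 2.11 and 4.29 CPM in VM. Every AM library was above every VM library. The mean was 4.74-fold higher in AM (log2 fold change 2.23, SE 0.24, adjusted p = 4.8e-08 in edgeR). These are low levels, with 4 to 21 counts of ROBO4 in a VM library.

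APLNR ranged over 43.4, 73.9 and 119 CPM in AM and 13.6, 19.2 and 26.8 CPM in VM, again with no overlap. Its log2 fold change was 1.91 (SE 0.12, adjusted p = 6.3e-12 in edgeR). RAMP2, which joins the receptor CALCRL to make it bind adrenomedullin, ranged over 15.1, 27.3 and 40.9 CPM in AM and 8.08, 9.65 and 13.6 CPM in VM. All 12 AM libraries of RAMP2 were above all 12 VM libraries (log2 fold change 1.32, SE 0.15, adjusted p = 1.3e-07 in edgeR). Its partner CALCRL overlapped widely, at 10.7, 19.8 and 47.8 CPM in AM and 6.54, 15.9 and 24.9 CPM in VM, and was not called (log2 fold change 0.40, SE 0.17, adjusted p = 0.078 in edgeR). APLN, the ligand of APLNR, was not called either, with a log2 fold change of 0.11 (SE 0.28, adjusted p = 0.80 in edgeR). The apelin receptor and RAMP2 thus rose where their ligand and partner gene did not pass the test; the difference between the genes was not tested.

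ENG, an accessory receptor for the TGF-beta and BMP ligands, ranged over 33.4, 47.9 and 65.1 CPM in AM and 22.8, 26.2 and 33.1 CPM in VM. The lowest AM library, ZNF503 replicate 1, was just above the highest VM library, ZNF503 replicate 3. The log2 fold change of ENG was 0.81 (SE 0.09, adjusted p = 4.6e-08 in edgeR). Of the angiopoietin receptors, TIE1 ranged over 28.5, 43.5 and 69.0 CPM in AM and 21.3, 26.1 and 29.9 CPM in VM, and its AM library was higher in 12 of 12 pairs of the same target and replicate number. The log2 fold change was 0.73 (SE 0.09, adjusted p = 8.6e-07 in edgeR). TEK rose by less, with overlapping ranges of 21.3 to 55.4 CPM in AM and 15.7 to 39.5 CPM in VM (log2 fold change 0.44, SE 0.14, adjusted p = 0.016 in edgeR). PLVAP, the protein of the diaphragms that close endothelial pores, rose by 0.50 on the log2 scale (SE 0.08, adjusted p = 1.3e-05 in edgeR), at 63.9 to 113 CPM in AM and 48.8 to 77.8 CPM in VM.

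The VEGF receptors among the members, KDR and FLT1, did not pass the test. KDR, the main signalling receptor for VEGF-A, ranged over 160, 189 and 336 CPM in AM and 153, 179 and 229 CPM in VM (log2 fold change 0.19, SE 0.09, adjusted p = 0.10 in edgeR). FLT1, which binds VEGF-A and limits its signal, ranged over 101, 109 and 133 CPM in AM and 84.2, 113 and 165 CPM in VM (log2 fold change -0.02, SE 0.07, adjusted p = 0.82 in edgeR). Both sets of libraries overlapped. With scaling to library size alone the estimate for FLT1 was 0.05 and that for KDR was 0.27, the latter with an adjusted p of 0.026 in edgeR. With a replicate block within each protocol, KDR was called higher in AM (log2 fold change 0.18, adjusted p = 0.02 in edgeR). That block does not pair AM with VM libraries. It takes the spread between replicate numbers within a protocol out of the error, so its calls of AM against VM are less strict.

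S1PR1 was the only member with every AM library below every VM library. It ranged over 30.8, 41.3 and 45.9 CPM in AM and 50.7, 68.2 and 90.7 CPM in VM. The VM mean was 1.75-fold higher (log2 fold change -0.79, SE 0.09, adjusted p = 2.7e-07 in edgeR). Over all genes, 2.69% had every AM library above every VM library and 1.56% had every one below. Among the 32 members these were 5 (APLNR, ENG, ERG, RAMP2 and ROBO4) and 1 (S1PR1).

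**Figure D2:**
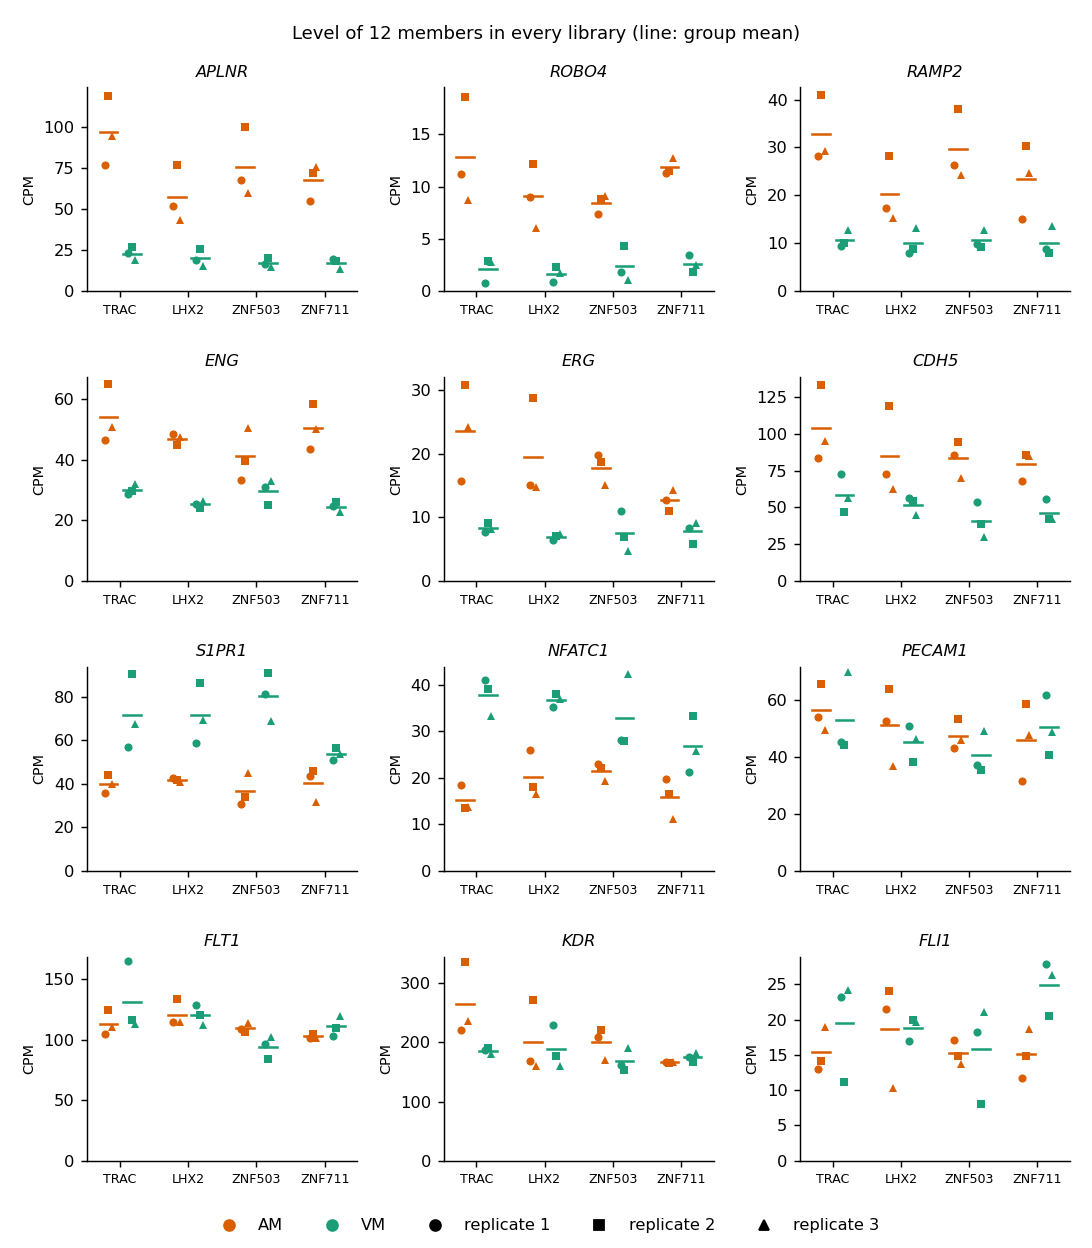
CPM of 12 members in each library, by labelled target on the horizontal axis, with AM in orange and VM in green, a symbol for each replicate number and a line at each group mean of 3 libraries. In APLNR, ROBO4, RAMP2, ENG and ERG all orange symbols lie above all green ones, in S1PR1 all lie below, and in PECAM1, FLT1, KDR and FLI1 they mix.

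Of the 3 ligands, EGFL7, a secreted protein of growing vessels, rose, ANGPT2 fell and APLN was not called. EGFL7 ranged over 77.0, 88.3 and 116 CPM in AM and 51.1, 58.5 and 87.3 CPM in VM (log2 fold change 0.51, SE 0.09, adjusted p = 4.1e-05 in edgeR). ANGPT2 was low, at 1.28, 2.15 and 4.75 CPM in AM and 1.03, 5.67 and 8.57 CPM in VM. Its log2 fold change was -1.03 (SE 0.30, adjusted p = 0.01 in edgeR), and the VM libraries spread from 5 to 46 counts. The ANGPT2 call was lost without replicate 1 (adjusted p = 0.12) and without replicate 3 (adjusted p = 0.22) of all groups in edgeR.

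Among junction and adhesion genes, 5 of 7 rose, none fell and 2 were not called. CDH5, the VE-cadherin of endothelial junctions, ranged over 62.7, 85.2 and 133 CPM in AM and 29.7, 50.3 and 72.6 CPM in VM. Of its AM libraries, 9 were above every VM library, and the AM library was higher in 12 of 12 pairs (log2 fold change 0.84, SE 0.12, adjusted p = 4.4e-06 in edgeR). CLDN5 ranged over 3.61, 7.32 and 11.7 CPM in AM and 1.07, 2.61 and 5.07 CPM in VM, and was higher in 12 of 12 pairs (log2 fold change 1.51, SE 0.24, adjusted p = 2.3e-05 in edgeR). ESAM, an adhesion molecule of endothelial junctions, ranged over 19.3 to 34.7 CPM in AM and 11 to 23.1 CPM in VM, with a log2 fold change of 0.84 (SE 0.12). ICAM2, which white blood cells bind, rose by 0.92 (SE 0.19) and CD34, a surface sialomucin, by 0.46 (SE 0.08) on the log2 scale.

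PECAM1 (CD31), the adhesion molecule used most often to mark endothelium, did not follow these genes past the test. It ranged over 31.5, 51.1 and 65.7 CPM in AM and 35.5, 45.8 and 69.7 CPM in VM, so that the ranges lay almost on each other. The AM library was higher in 7 of 12 pairs (log2 fold change 0.09, SE 0.12, adjusted p = 0.61 in edgeR). EMCN, an endothelial sialomucin, was not called either, at 9.06 to 17.7 CPM in AM and 5.52 to 14.9 CPM in VM (log2 fold change 0.22, SE 0.14).

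Of the transcription factors, 5 of 7 rose, 1 fell and 1 was not called. ERG, an ETS factor that keeps endothelial genes on, ranged over 11.1, 15.4 and 30.7 CPM in AM and 4.73, 7.6 and 11 CPM in VM. The ranges of ERG almost touched, and all AM libraries were above all VM libraries (log2 fold change 1.23, SE 0.16, adjusted p = 8.5e-07 in edgeR). TAL1, a helix-loop-helix factor of blood and endothelial progenitors, was 3.42 to 15.3 CPM in AM and 1.63 to 11.1 CPM in VM (log2 fold change 1.03, SE 0.23, adjusted p = 0.0008 in edgeR). The SOX factors of vessel and lymph growth also rose, SOX18 by 0.84 (SE 0.21) and SOX7 by 0.72 (SE 0.17) on the log2 scale, and ETS1 by 0.45 (SE 0.10).

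NFATC1, the factor of the endocardium and its valves, went the other way. It ranged over 11.2, 18.3 and 26.0 CPM in AM and 21.3, 34.3 and 42.3 CPM in VM, with the AM library lower in 12 of 12 pairs. Of the VM libraries, 10 were above every AM library (log2 fold change -0.89, SE 0.12, adjusted p = 1.1e-06 in edgeR). FLI1, the ETS factor closest to ERG, was not called, at 10.3 to 24 CPM in AM and 7.97 to 27.9 CPM in VM (log2 fold change -0.29, SE 0.16, adjusted p = 0.19 in edgeR).

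Of the 4 secreted proteins and enzymes, 2 rose and 2 were not called. MMRN1, a multimerin stored and released by endothelial cells and platelets, ranged over 9.96, 14.0 and 25.6 CPM in AM and 3.47, 6.22 and 14.3 CPM in VM (log2 fold change 1.08, SE 0.19, adjusted p = 5.6e-05 in edgeR). NOS3, the endothelial nitric oxide synthase, rose by 0.26 (SE 0.09, adjusted p = 0.033 in edgeR), with overlapping ranges of 49.2 to 79.6 CPM and 35.3 to 58.7 CPM. The NOS3 call was lost in 10 of 27 fits that left libraries out, 8 of them leaving out 1 library, with an adjusted p of up to 0.081 in those 8. VWF, the clotting protein that platelets bind, was not called, at 4.94 to 10.5 CPM in AM and 4.95 to 12.2 CPM in VM (log2 fold change 0.12, SE 0.17). MMRN2, a multimerin of the endothelial matrix, was not called (log2 fold change 0.24, SE 0.13, adjusted p = 0.15 in edgeR), and was called with a replicate block within each protocol (0.23, adjusted p = 0.031 in edgeR).

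Per kilobase of exon, the top 3 members were the same in both protocols, and the order below them changed. APLNR was at place 5 in AM and 14 in VM, and S1PR1 at place 12 in AM and 4 in VM. In AM, PLVAP had 37.3 CPM per kilobase (SD 6.78, n = 12), EGFL7 35.1 (SD 4.37) and KDR 31.6 (SD 8.24), which differ by less than their spread. In VM, the same 3 genes led, with KDR at 27.3, PLVAP at 26.3 and EGFL7 at 24.6 CPM per kilobase. ROBO4, with the highest fold change of the tested members, had 1.5 CPM per kilobase in AM. The strand of counting is not given in the sources used here, so reads cannot be told apart where genes on both strands share exon bases. This touches 412 of 1148 exon bases of RAMP2 (shared with RAMP2-AS1), 869 of 3243 of ICAM2, 845 of 5700 of TAL1 and 786 of 5953 of NOS3. It also touches ROBO4 (744 and 448 of 7033 bases, with a pair of genes), ENG (313 of 3935), FLI1 and ANGPT2.

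Summed over the 32 tested members, AM libraries held 1326 CPM (SD 212, n = 12) and VM libraries 1022 CPM (SD 83.3, n = 12). The AM range was 1064 to 1790 CPM and the VM range 843 to 1151 CPM, so the ranges overlapped. Replicate 2 was the highest of the 3 AM libraries for every target, at 1272 to 1790 CPM, against 1106 to 1366 for replicate 1 and 1064 to 1393 for replicate 3. Leaving out replicate 2 in all groups took the count of called members from 23 to 17. The calls of ETS1, NOS3, SOX7, SOX18, TAL1 and TEK were then lost. Estimates for PECAM1 and MMRN2 turned negative in that fit, to -0.18 and -0.04, without a call. The share of all genes called in that fit is not given here.

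Markers of other cell types differed between the protocols in the same libraries. On average, 16.8% of all genes were called higher and 17.6% lower in AM, and with ZNF711 6.81% and 6.42%. The sum of 10 hepatic endoderm genes was 223 to 2191 CPM in AM and 1702 to 31191 CPM in VM, with 8 of 10 lower in AM, and was highest in replicate 3 of VM for TRAC, LHX2, ZNF503 and ZNF711. The sum of 10 fibroblast and smooth muscle genes was 3825 to 6516 CPM in AM and 1510 to 4290 CPM in VM, with 4 of 10 higher and 1 lower in AM. Cardiomyocyte genes summed to 15228 to 30175 CPM in AM and 11809 to 42310 CPM in VM, with 0 of 10 higher and 6 lower on average and, with ZNF711, 2 higher and 1 lower. Epicardial genes summed to 51.9 to 155 CPM and 23.7 to 64.9 CPM. The part of these cell types in the members' differences was not tested. Of 17 blood cell genes, 4 passed the filter and 2 rose, SPN and RUNX1; GATA1, HBE1, HBG1 and PF4 had 0 counts in every library, and PTPRC (CD45) had at most 1 count.

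**Figure D3:**
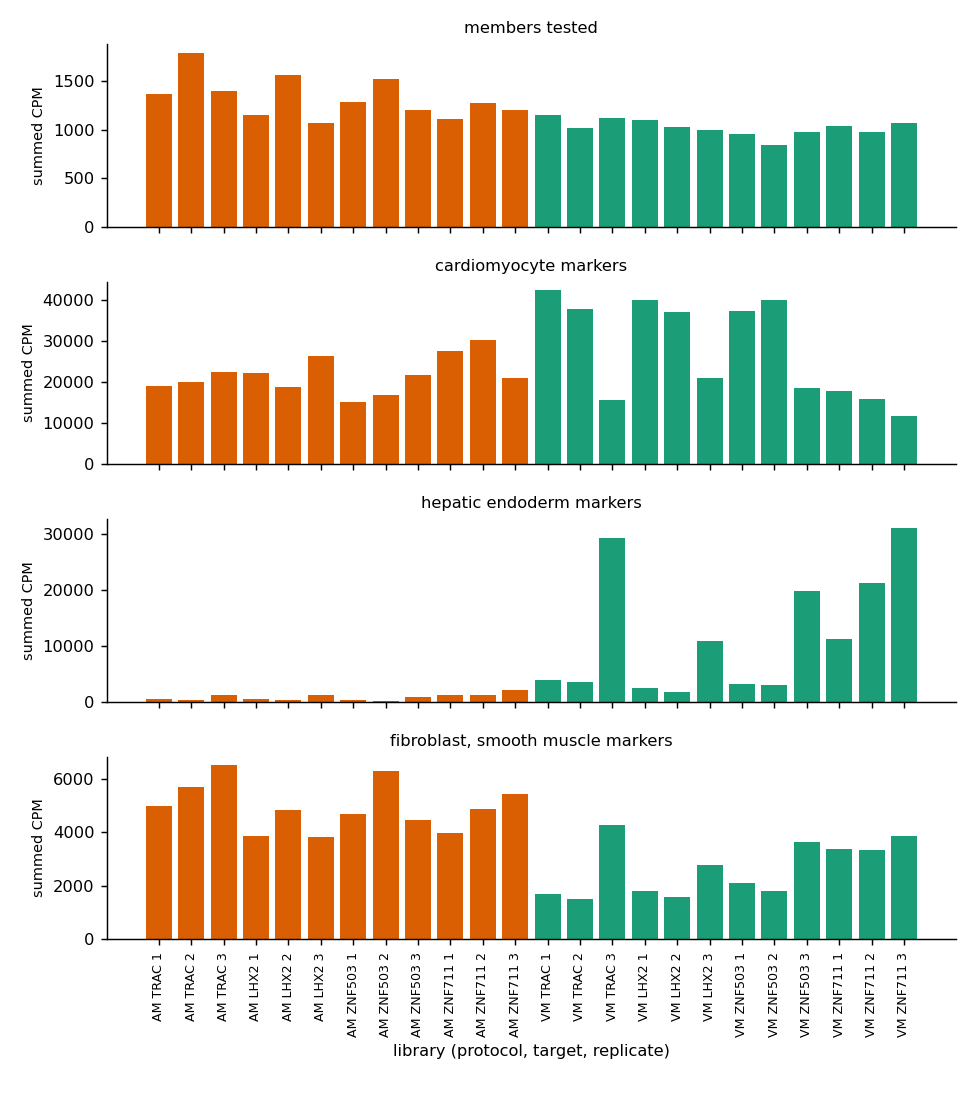
Summed CPM in each of the 24 libraries for the 32 tested members and for markers of cardiomyocytes, hepatic endoderm, and fibroblasts with smooth muscle, AM in orange and VM in green. The members' bars reach 1064 to 1790 CPM in AM and 843 to 1151 CPM in VM, while the hepatic bars are highest in replicate 3 of each VM target.

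Other genes of the same pathways were read from lists drawn up beside the members, in the averaged comparison of AM with VM. In that comparison 16.8% of all genes were called higher and 17.6% lower. The lists share genes, which are counted in each. TBX20 and FOXC1 are in the partner factor and endocardial lists, and NRP2 is in the VEGF and venous lists. Of 11 tested genes of VEGF and angiopoietin signalling, 6 rose and 1 fell. VEGFC, the lymphatic VEGF, went from a mean of 7.47 CPM in VM to 47.6 CPM in AM (log2 fold change 2.70), ANGPT1, the activating ligand of TEK, from 54.2 to 333 CPM (2.67), and VASH1, a feedback inhibitor of vessel growth, from 78.7 to 310 CPM (1.95). VEGFA, named after its value was seen as the gene that fell, went from 510 to 297 CPM (-0.79). FLT4, the VEGF receptor that binds VEGFC, rose from 22.2 to 68.3 CPM (log2 fold change 1.63, adjusted p = 1.7e-11 in edgeR) and NRP2, a co-receptor, from 378 to 663 CPM (0.80, adjusted p = 3.8e-07); both were named after their values were seen. Of the angiopoietins, ANGPT1 was thus higher and ANGPT2 lower in AM, and ANGPT4 was not tested. The ANGPT2 call rested on 4 to 46 counts in a library and was lost without replicate 1 or replicate 3 of all groups. Of 5 tested genes of apelin and adrenomedullin signalling, 2 rose and 1 fell: RAMP1, another partner of CALCRL, rose by 2.46, the scavenging receptor ACKR3 rose by 0.93 and adrenomedullin itself (ADM) fell by 0.68 on the log2 scale.

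Of 14 partner transcription factors, 7 rose and 3 fell, among them SOX17 (1.58), LYL1 (1.05) and TBX20 (-1.81) on the log2 scale. Of 12 arterial and Notch genes, 6 rose and 2 fell, with HEY1 at 1.71, NOTCH4 at 1.27 and HEY2, which also acts in ventricular muscle, at -3.57. Of 7 tested venous genes, 6 rose and none fell. NR2F2, the venous and atrial nuclear receptor that carries the mCherry reporter here, went from 41.6 to 408 CPM (log2 fold change 3.45), and FLRT2 rose by 1.38. STAB2, a scavenger receptor of sinusoidal and lymphatic endothelium, had 0.951 to 87.4 CPM in AM and at most 3 counts in any VM library.

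The list of 14 endocardial genes was split, with 4 higher and 6 lower in AM. NPR3, the clearance receptor for natriuretic peptides, rose by 1.16, FOXC1 by 0.98, CCM2L by 0.78 and GATA4 by 0.53 on the log2 scale. TBX20, which heart muscle also makes, was lower (-1.81). NRG1 (-0.87), ADGRG6 (-0.80), SMAD6 (-0.63), HEG1 (-0.27) and SMAD7 (-0.25) were lower too. Of 16 junction and surface genes, 7 rose and 4 fell. JAM2 rose by 2.45, CAVIN2 by 1.56 and CD93 by 1.23 on the log2 scale. The 4 that fell were CAV1 (-0.96), MCAM (-0.86), TMEM88 (-0.63) and ROBO1 (-0.24). This list summed to a mean of 571 CPM in AM and 558 CPM in VM. The median log2 fold changes were 0.41 for VEGF and angiopoietin genes, 0.52 for partner factors, 0.66 for arterial and Notch genes, 1.10 for venous genes, -0.22 for endocardial genes and 0.18 for junction and surface genes, beside -0.01 for all genes.

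The difference between AM and VM was then read within each labelled target, 3 libraries against 3. In TRAC, 13 members rose and 2 fell, where 11.3% of all genes were called, 6.18% higher and 5.12% lower. In the LHX2 libraries, 6 rose and 2 fell, where 8.56% of all genes were called, 4.68% higher and 3.88% lower. In the ZNF503 libraries, 14 rose and 1 fell, where 8.86% were called, 4.77% higher and 4.1% lower. In the ZNF711 libraries, 9 rose and 2 fell, where 13.2% were called, 6.81% higher and 6.42% lower. Members with all 3 AM libraries above all 3 VM libraries numbered 18 in TRAC (14.3% of all genes), 11 with LHX2 (12.5%), 24 with ZNF503 (12.7%) and 15 with ZNF711 (16.5%). Those with all 3 below numbered 2 (11.7%), 2 (11.4%), 2 (10.8%) and 5 (16.4%). The members' median log2 fold changes were 0.65, 0.31, 0.81 and 0.26 in that order, beside medians within 0.04 of 0 for all genes.

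APLNR, ESAM, RAMP2 and ROBO4 were called in each of the 4 targets. In TRAC, APLNR stood at 77.2, 119 and 94.9 CPM in AM (replicates 1 to 3) and 23.4, 26.8 and 19.1 CPM in VM. In the LHX2 libraries it stood at 52.0, 76.8 and 43.4 CPM and 19.4, 26.1 and 15.6 CPM. In both targets all AM libraries of APLNR were above all VM libraries. Its log2 fold change was 2.08 (SE 0.24) in TRAC, 1.49 (SE 0.25) with LHX2, 2.13 (SE 0.25) with ZNF503 and 1.96 (SE 0.25) with ZNF711. RAMP2 gave 1.60, 1.01, 1.47 and 1.20 in the same order (SE 0.29 to 0.30), and ROBO4 gave 2.53, 2.41, 1.78 and 2.18 (SE 0.47 to 0.49).

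CDH5, ENG, ERG, NFATC1, PLVAP and S1PR1 were called in 3 of the 4 targets. Another 4 members (ETS1, ICAM2, MMRN1, TIE1) were called in 2, 7 in 1, and 11 in none, SOX18 and NOS3 among them although they were called on average. CLDN5 was called with ZNF503 alone of the 4 targets, at 7.25, 11.7 and 7.80 CPM in AM and 2.82, 1.63 and 1.07 CPM in VM (log2 fold change 2.27). ANGPT2 was called with ZNF711 alone, at 2.25, 1.61 and 1.56 CPM in AM and 5.94, 7.15 and 8.57 CPM in VM (-1.98). ICAM2 was called in TRAC and with ZNF711, and with LHX2 its libraries overlapped at 4.82, 6.20 and 2.85 CPM in AM and 4.32, 6.38 and 3 CPM in VM. CLDN5, ANGPT2 and ICAM2 were not called in the interaction tests described below. In all 4 targets, 20 members were fitted higher in AM and 4 fitted lower (ANGPT2, FLI1, NFATC1 and S1PR1). The share of all genes with the same direction in all 4 targets was not computed. With a replicate block, which compares libraries of the same number, the counts were 19, 12, 18 and 12 in the same order, where 19.4%, 15.7%, 14.9% and 23.4% of all genes were called. With a block within each protocol they were 21, 14, 21 and 17, where 23.7%, 19.5%, 18.9% and 27.8% were called. The block within each protocol leaves AM and VM unpaired and takes the spread between replicate numbers out of the error.

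In TRAC, LHX2 and ZNF711 these counts moved by over 1.5 times with single libraries; with ZNF503 no single library moved the count that far. Without AM TRAC replicate 2, 9 members were called in TRAC. In the LHX2 libraries 5 were called without AM replicate 2 and 5 without VM replicate 2. In the ZNF711 libraries 3 were called without AM replicate 2, 4 without AM replicate 3, 4 without VM replicate 2 and 6 without VM replicate 3. Without replicate 2 of all groups, the counts were 3 in TRAC, 3 with LHX2, 4 with ZNF503 and 2 with ZNF711. Without replicate 1 of all groups they were 5 with LHX2 and 6 with ZNF711, and without replicate 3 they were 4 with ZNF711. The shares of all genes called in these fits are not given here. Fits with fewer libraries can also call fewer genes in general.

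**Figure D4:**
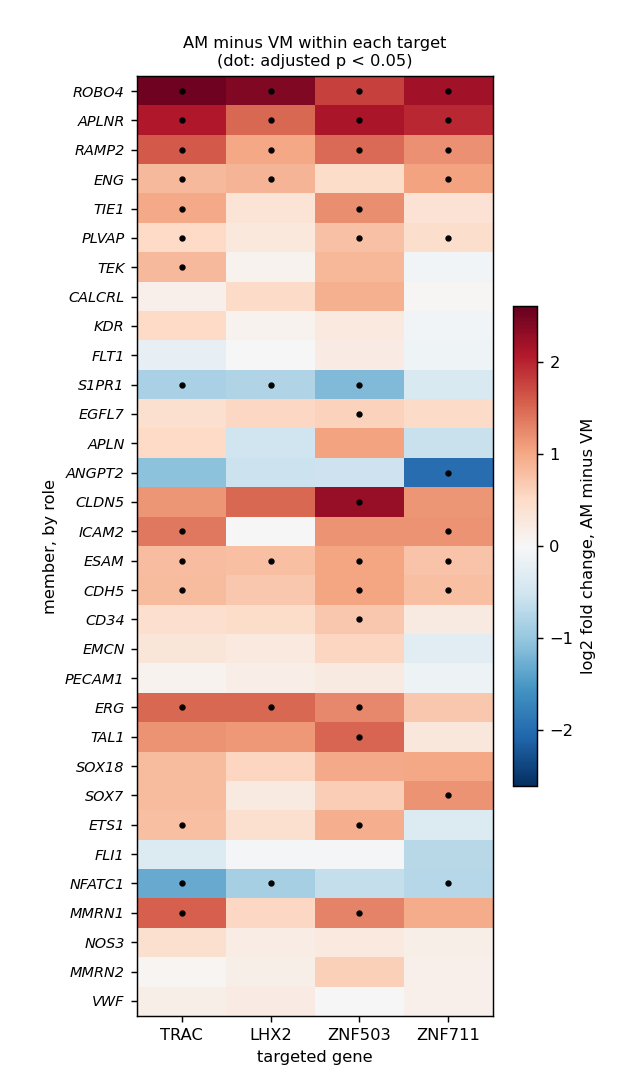
Log2 fold change, AM minus VM, of each tested member (rows, by role) within each labelled target (columns), red higher and blue lower in AM, with a dot where the adjusted p was below 0.05. ROBO4, APLNR, RAMP2 and ESAM carry a dot in all 4 columns, and ETS1 is red in TRAC and pale blue in ZNF711.

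Against TRAC within a protocol, no member was called in edgeR with the filter on low counts and no block in any of the 6 comparisons, which share their TRAC libraries within a protocol. Among all genes, 0% were called in 5 of these comparisons and 0.0169% (3 genes) in ZNF711 against TRAC in VM. DESeq2 called 0 members in each. With no filter on low counts, edgeR called KDR in ZNF711 against TRAC in AM (-0.70, adjusted p = 0.029), where 0.255% of all genes were called. At an unadjusted p below 0.05 in edgeR there were 7, 3 and 8 members in AM for LHX2, ZNF503 and ZNF711, and 0, 7 and 3 in VM. Over all genes tested, 7.74%, 1.74% and 3.49% were below that limit in AM and 2.61%, 1.55% and 9.4% in VM, and 7 of 32 members is 21.9%. The members' median log2 fold changes were -0.28, -0.17 and -0.29 in AM and -0.10, -0.27 and -0.10 in VM, beside all-gene medians between -0.02 and 0.01. Members with all 3 targeted libraries below all 3 TRAC libraries numbered 7, 1 and 8 in AM (9.72%, 4.01% and 6.13% of all genes) and 2, 4 and 3 in VM (2.41%, 2.3% and 4.72%). Those with all 3 above numbered 0, 1 and 0 in AM (9.28%, 4.54% and 5.61%) and 0, 0 and 1 in VM (2.71%, 2.03% and 5.41%). Negative estimates were found for 26, 24 and 26 of 32 members in AM and 22, 27 and 21 in VM. The share of all genes with a negative estimate was not computed. AM TRAC replicate 2, used in each AM comparison, had the highest member sum of the 24 libraries, at 1790 CPM. Its part in these counts was not tested.

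**Figure D5:**
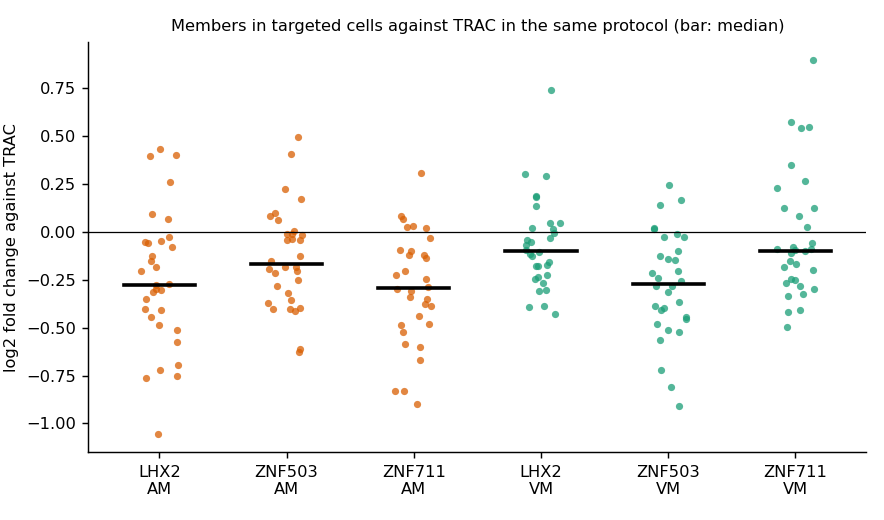
Log2 fold change of the 32 tested members in libraries labelled LHX2, ZNF503 or ZNF711 against TRAC of the same protocol, 1 point per member and a bar at the median. The medians lie between -0.29 and -0.10; no point was called in the fit with the filter and no block.

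With the replicate block, calls appeared in AM. APLNR in the LHX2 libraries fell by 0.78 (SE 0.16, adjusted p = 0.014 in edgeR with the block, 0.40 without it), from 77.2, 119 and 94.9 CPM in TRAC to 52.0, 76.8 and 43.4 CPM. Each LHX2 library was below the TRAC library of its number, and the highest LHX2 library lay just below the lowest of TRAC. TIE1 fell by 0.72 (SE 0.17, adjusted p = 0.029 with the block and 0.29 without it in edgeR), from 50.6, 69.0 and 44.6 CPM to 28.9, 42.4 and 28.5 CPM, with no overlap. In that comparison 1.13% of all genes were called with the block. With a block within each protocol, 3.11% of all genes were called there, and PLVAP (-0.49, adjusted p = 0.0091), RAMP2 (-0.72, 0.034) and TEK (-0.58, 0.035) joined APLNR and TIE1.

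In the AM libraries labelled ZNF711, the block within each protocol called ETS1, KDR and TEK lower than in TRAC, where 0.53% of all genes were called. TEK stood at 44.8, 55.4 and 42.1 CPM in TRAC and 21.3, 30 and 28.9 CPM with ZNF711, without overlap. Its log2 fold change was -0.83 (SE 0.16, adjusted p = 0.01 in edgeR with that block, 1 without a block). KDR stood at 220, 336 and 237 CPM in TRAC and 167, 166 and 166 CPM with ZNF711 (log2 fold change -0.64, SE 0.13, adjusted p = 0.014 with that block in edgeR). All 3 ZNF711 libraries of KDR were below all 3 TRAC libraries. In VM the same block called ETS1 higher with ZNF711 (log2 fold change 0.57, SE 0.15, adjusted p = 0.01 in edgeR), where 8.35% of all genes were called. No member was called with that block for ZNF503 in AM (0.0564% of all genes), LHX2 in VM (0.0451%) or ZNF503 in VM (0%). The block shared by both protocols called no member for ZNF503 in AM (0.00564%), ZNF711 in AM (0.0395%), LHX2 in VM (0.00564%), ZNF503 in VM (0%) or ZNF711 in VM (2.27%).

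ETS1 was the member whose difference between AM and VM varied most with the target by unadjusted p. In TRAC it stood at 76.1, 90.5 and 75.4 CPM in AM and 43.1, 40.0 and 57.8 CPM in VM. In the ZNF711 libraries it stood at 48.7, 54.0 and 57.2 CPM in AM and 59.8, 78.4 and 67.3 CPM in VM. The VM libraries labelled ZNF711 also differed from VM TRAC in marker sums: cardiomyocyte genes 11809 to 17721 CPM against 15649 to 42310, pluripotency genes 296 to 377 CPM against 93.1 to 219, and cell cycle genes 392 to 509.9 CPM against 232 to 308. Their part in the result was not tested. In ETS1, AM was above VM without overlap in TRAC and below it without overlap with ZNF711. The interaction, the AM minus VM difference with ZNF711 less that in TRAC, was -1.14 (SE 0.29, unadjusted p = 0.00064, adjusted p = 0.39 in edgeR). With no filter on low counts it was -1.15 (adjusted p = 0.011 in edgeR), where 0.538% of all genes were called. The adjusted p was 0.094 with the replicate block and 0.00073 with a block within each protocol.

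No member was called in the 3 interaction tests in edgeR with the filter and no block, where 0%, 0% and 0.00564% of all genes were called for LHX2, ZNF503 and ZNF711, nor in DESeq2. At an unadjusted p below 0.05 there were 2, 2 and 4 members, and 3.72%, 1.95% and 6.4% of all genes. With a block within each protocol, 2 members were called for ZNF711, ETS1 and TEK (-0.95, SE 0.23, adjusted p = 0.017 in edgeR), where 2.54% of all genes were called. That block called no member for LHX2 (0.0508% of all genes) or ZNF503 (0%), and the shared block called none for LHX2 (0%), ZNF503 (0%) or ZNF711 (0.0282%). None of the genes of the pathway and cell type lists was called in edgeR with the filter and no block in the comparisons with TRAC or in the interactions.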

How the data were processed

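Gene counts were deposited by the authors as 1 table of 62757 genes in 24 libraries; per the submitters' processing notes reads were aligned with STAR to GRCh38. The counting program, strand setting and annotation are not given in the sources used here, and the labels name both polyA RNA and RiboErase depletion (KAPA, Roche). All 24 columns matched a library, and no row was other than a gene.

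Members and lists were chosen with earlier results of these data known. Counts were tested with edgeR 4.0.16 (R 4.3.3): TMM scaling, filterByExpr (17724 genes), 1 mean per group over 24 libraries, robust quasi-likelihood fit with 16 residual degrees of freedom, with p-values adjusted by Benjamini-Hochberg, separately for each of 14 comparisons. CPM use TMM-scaled library sizes. Standard errors are the log2 fold change divided by the root of F. Depth was 2899786 to 7438010 counts. Floors and CPM of few counts carry counting error only.

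Values by library were chosen for up to 12 members called on average with the largest absolute log2 fold change. They were also chosen for members called in any other comparison and the highest of each role. List genes were named for up to 3 called per list, by size. In the endocardial list all called genes were named, and in the junction and surface list all those called lower were added. Replicate numbers pair the libraries: deviations from group means over genes with a log2 CPM of at least 3 correlated at 0.125 to 0.786 in all compared same-number pairs. Blocked fits had a biological coefficient of variation of 16.9% (14.3% with a block within each protocol), against 25% without. Alternatives were relative log expression scaling, library size alone, no filter, DESeq2 1.42.0, a minimum of 1 CPM in 3 libraries, both blocks, only the groups compared, and libraries left out. Scripts were tested on simulated data. Promoters and gene positions are from RefSeq (GRCh38.p14) and exon lengths from GENCODE 29.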

Additional observations from a re-analysis of the deposited data

Results flagged for a closer look

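The differences of 2 members between AM and VM ran in opposite directions in TRAC and in the ZNF711 libraries. In all 3 pairs of the same replicate number AM was higher in TRAC, and in all 3 it was lower with ZNF711. All 32 tested members were searched for such a reversal with LHX2, ZNF503 and ZNF711. The share of all genes with this pattern was not computed. For ETS1 the interaction was -1.14 on the log2 scale (adjusted p = 0.39 in edgeR, 0.094 with the replicate block and 0.00073 with a block within each protocol). For KDR it was -0.58 (SE 0.25, adjusted p = 0.73 in edgeR, 0.40 and 0.11 with the blocks). KDR stood at 220, 336 and 237 CPM in AM and 187, 190 and 180 CPM in VM of TRAC, and at 167, 166 and 166 CPM in AM and 175, 167 and 181 CPM in VM of ZNF711, where the gaps within pairs were small. With the filter on low counts and no block, neither difference passed the test; with no filter ETS1 did (-1.15, adjusted p = 0.011 in edgeR). Marker sums of the VM libraries labelled ZNF711 also differed from VM TRAC (cardiomyocyte genes at a mean of 15170 against 31932 CPM), and their part in the result was not tested.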

How the results depend on the processing

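For the averaged difference between AM and VM, 32 members under 7 alternatives to scaling, filter, tool or block gave 224 values, of which 217 kept direction and side of the threshold. The rest were KDR (adjusted p = 0.026 in edgeR) and CALCRL (0.042) with library size alone, CALCRL (0.032) and NOS3 (0.059, call lost) with no filter, KDR (0.02) and MMRN2 (0.031) with a block within each protocol, and FLT1, which turned from -0.02 to 0.049 with library size alone. A fit on only the groups compared was not possible for this average, which uses all groups. Over 27 fits that left out 1 library or 1 replicate number, the count of called members was 17 to 25, with 17 without replicate 2. FLT1 ranged from -0.10 to 0.053, PECAM1 from -0.18 to 0.26, MMRN2 from -0.045 to 0.40 and APLN from -0.15 to 0.57, all turning sign in at least 1 fit. Single libraries also decided calls of CALCRL, KDR, MMRN2 and NOS3.

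Within targets the leave-out counts were 3 to 15 in TRAC, 3 to 11 with LHX2, 4 to 16 with ZNF503 and 2 to 8 with ZNF711. The shares of all genes called in the leave-out fits are not given here. Pairing by replicate number raised the counts of AM against VM in all 4 targets. With the replicate block, 2 members were called in LHX2 against TRAC in AM. With a replicate block within each protocol, 14 were called in AM against VM with LHX2 and 17 with ZNF711, 5 in LHX2 against TRAC in AM, 3 in ZNF711 against TRAC in AM, 1 in VM, and 2 in the ZNF711 interaction. The blocks moved no other count of calls by over 1.5 times. With no filter, which tests more genes, 7 were called in AM against VM with ZNF711 (6.57% of all genes), 1 (KDR) in ZNF711 against TRAC in AM (0.255%) and 1 (ETS1) in the ZNF711 interaction (0.538%). Leaving out libraries gave 0 to 1 call in ZNF711 against TRAC in VM and 0 to 1 in the ZNF711 interaction, both 1 without replicate 3, and 0 in the other comparisons with TRAC and interactions. The cause of these changes was not tested. Mean levels in VM were under about 10 CPM for ANGPT2, APLN, CLDN5, ERG, ICAM2, MMRN1, ROBO4, SOX7, SOX18, TAL1 and VWF. Such levels rest on few counts in some libraries, which limits what could be detected for these members.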
